A study of Mus musculus with 16 samples.

Results

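The insulin-like growth factors and their binding proteins were followed in whole mouse skin after an epidermal β-catenin transgene was switched on. The 8 genes were Igf1, Igf2 and Igfbp2 to Igfbp7. They were found as every probe set (a group of array probes for 1 transcript) whose single annotated symbol was 1 of these names, which gave 19 of the 20380 probe sets with 1 symbol. Of these, 16 probe sets passed a filter on dim values, as did 13882 of the 20380, and all 8 genes kept at least 1 probe set, against 9058 of 12393 genes in all.

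The RNA came from total skin on 16 Affymetrix 430 A arrays. K14deltaNB-cateninER transgenic mice of line D2 were measured on day 0 (2 arrays), day 1 (3) and day 7 (3) of 4-hydroxytamoxifen (4OHT), and wild-type C57BL/6 mice on day 0 (3), day 1 (3) and day 7 (2). The transgene joins a β-catenin lacking its N terminus to a receptor domain that 4OHT activates, under control of the keratin 14 promoter, known to work in basal cells of the epidermis and hair follicle and not in dermis, vessels, fat or muscle, which total skin also holds. Wild-type mice received 4OHT too, so they control for the drug, and arrays of transgenic skin given carrier alone for the same time were not analysed here. The labels give no age and no strain for the transgenic mice, and do not say which arrays come from separate animals, so a p-value here speaks only of the spread from array to array, part of which may be technical. Values are scaled intensities, which have no absolute unit, so the levels of different genes are not compared; differences are in log2(intensity + 32) ± the standard error (SE) of a limma fit to all 16 arrays, and a gene rose or fell where its Benjamini-Hochberg adjusted p, over 13882 probe sets, was under 0.05. Genes were counted by their brightest probe set, and summed marker intensities follow the brighter markers of a list.

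IGF-I and IGF-II are secreted ligands that act through the type 1 IGF receptor on growth and survival, while the IGF-II receptor takes IGF-II into the cell to be degraded. Most ligand outside cells is held by IGF binding proteins, which limit access to the receptor or release ligand when proteases cut them. In skin the dermis and the dermal papilla are known sources of IGF-I for the epithelium of the hair follicle, and a follicle must pass through growth, regression and rest, phases in which several binding proteins are known to differ.

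At day 7 the binding proteins of transgenic skin had moved in opposite directions. Of the 8 genes, Igfbp2, Igfbp4 and Igfbp7 rose against transgenic day 0 and Igfbp3, Igfbp5 and Igfbp6 fell. The background was large: 18.2% of all genes rose and 19.7% fell in that comparison. Against wild-type skin at day 7, Igfbp2 was higher, and Igf1, Igf2, Igfbp3, Igfbp5 and Igfbp6 were lower, where 18.9% of all genes were higher and 20.5% lower. The median log2 difference of the 8 genes was -0.91 in that comparison, beside 0.01 over all genes.

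Igfbp2 and Igfbp5, which moved in opposite directions in transgenic skin, are neighbours. In RefSeq's GRCm38.p6, Igfbp2 lies on chromosome 1 from 72824480 to 72852474 on the plus strand and Igfbp5 from 72858065 to 72874865 on the minus strand, so the genes point at each other across 5.59 kb. The 300 bases around the annotated start of these genes are given with those of Igfbp3 and Igfbp6, the other 2 that fell, to show what the starts of genes that moved together or apart hold; each has 250 bases before and 50 from the start on. They are Igfbp2 at chr1:72824230-72824529 (+), Igfbp5 at chr1:72874816-72875115 (-), Igfbp3 at chr11:7213874-7214173 (-), a start inside the annotated gene, and Igfbp6 at chr15:102143936-102144235 (+). Capitals mark CTTTG, the core that TCF/LEF partners of β-catenin recognise, and TATAAA, each searched on both strands, so that they also appear as CAAAG and TTTATA.
Igfbp2: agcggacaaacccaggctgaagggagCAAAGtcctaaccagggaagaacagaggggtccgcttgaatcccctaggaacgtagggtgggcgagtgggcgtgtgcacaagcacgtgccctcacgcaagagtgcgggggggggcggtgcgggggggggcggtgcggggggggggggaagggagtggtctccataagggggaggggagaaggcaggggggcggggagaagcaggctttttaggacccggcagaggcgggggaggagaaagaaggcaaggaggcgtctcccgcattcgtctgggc
Igfbp5: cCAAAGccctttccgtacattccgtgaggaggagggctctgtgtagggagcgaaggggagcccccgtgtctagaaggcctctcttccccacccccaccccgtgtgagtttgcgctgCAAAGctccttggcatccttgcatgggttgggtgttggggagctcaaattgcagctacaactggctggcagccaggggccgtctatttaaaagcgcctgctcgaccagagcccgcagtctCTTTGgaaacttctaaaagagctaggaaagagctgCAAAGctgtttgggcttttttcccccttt
Igfbp3: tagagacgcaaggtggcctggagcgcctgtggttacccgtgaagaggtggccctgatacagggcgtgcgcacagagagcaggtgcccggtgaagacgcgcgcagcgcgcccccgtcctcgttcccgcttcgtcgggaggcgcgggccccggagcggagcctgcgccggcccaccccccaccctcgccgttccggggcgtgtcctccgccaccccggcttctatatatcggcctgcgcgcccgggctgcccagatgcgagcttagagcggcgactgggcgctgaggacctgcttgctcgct
Igfbp6: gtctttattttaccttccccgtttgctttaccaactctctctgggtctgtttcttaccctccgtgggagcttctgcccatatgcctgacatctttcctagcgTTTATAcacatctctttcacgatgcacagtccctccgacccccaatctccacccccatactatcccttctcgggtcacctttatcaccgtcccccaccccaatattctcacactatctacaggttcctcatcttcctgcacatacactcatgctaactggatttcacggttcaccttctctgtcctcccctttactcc
CTTTG was found 4 times for Igfbp5, 1 time for Igfbp2 and 0 times for Igfbp3 and Igfbp6, and 53.9% of 32851 RefSeq promoters of this length held it. TATAAA was found 1 time for Igfbp6, and 13.6% of promoters held it. The Igfbp2 stretch held GGGCGG 3 times (35.7% of promoters held it) and 67% of its bases were G or C, against 71.7% for Igfbp3, 56.3% for Igfbp5 and 49.7% for Igfbp6. The median over all promoters was 52.7%. The stretches of Igfbp4 and Igfbp7, which also rose, are not printed. They held CTTTG 1 and 0 times, TATAAA 1 and 0 times and GGGCGG 0 and 4 times, with 71.3% and 73.3% G or C. A second annotated Igfbp2 start, at chr1:72825137-72825436 (+), held CTTTG and GGGCGG 0 times each and 57.3% G or C. A match is a string of letters and no measured binding site.

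**Figure D1:**
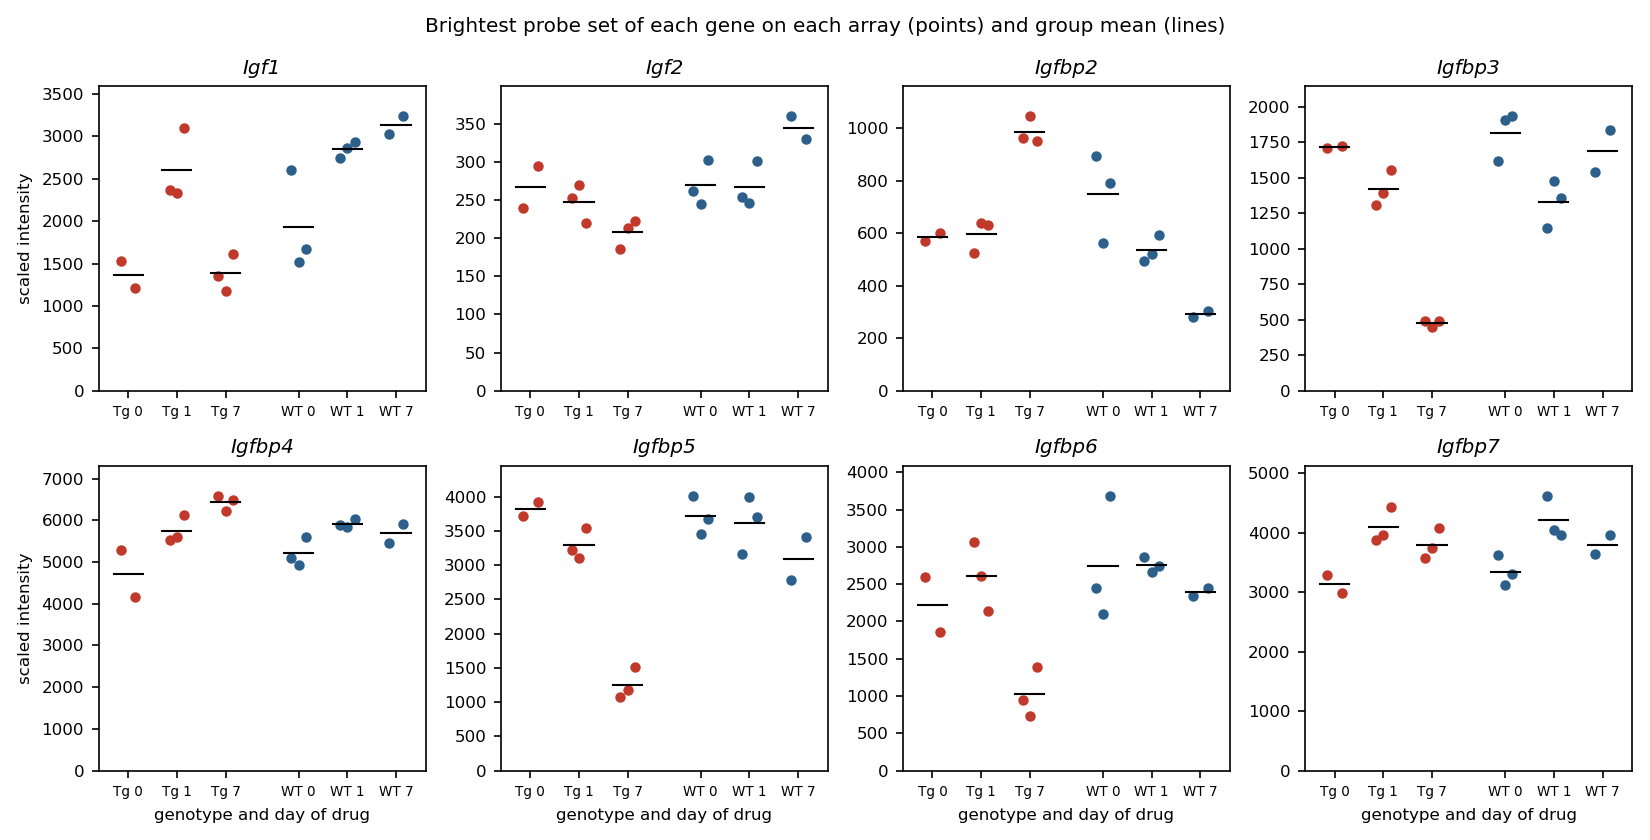
Scaled intensity of the brightest probe set of each of the 8 genes on every array (points) by genotype (Tg, transgenic, red; WT, wild type, blue) and day of 4OHT, with group means as lines and axes from 0. Igfbp3, Igfbp5 and Igfbp6 are lowest on the 3 transgenic day 7 arrays, while Igfbp2 is highest there and lowest on the 2 wild-type day 7 arrays.

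Among the ligands, Igf1, made in skin chiefly by mesenchymal cells and macrophages, rose in both genotypes by day 1 of 4OHT and was lower in transgenic than in wild-type skin at day 7. In transgenic skin Igf1 measured 1529 and 1206 on day 0, 2365, 2326 and 3102 on day 1, and 1359, 1174 and 1615 on day 7. In wild-type skin it measured 2600, 1521 and 1676 on day 0, 2743, 2867 and 2932 on day 1, and 3027 and 3233 on day 7. All 3 transgenic day 1 arrays were above both day 0 arrays, the day 7 arrays overlapped day 0, and every transgenic day 7 array was below every wild-type day 7 array.

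Igf1 rose by day 1 in transgenic skin by 0.91 ± 0.19 (limma adjusted p = 0.00939) and in wild-type skin by 0.59 ± 0.17 (adjusted p = 0.0238). Beside Igf1, Igfbp7 was, by its brightest probe set, the other gene of the 8 to rise at day 1 in either genotype. Over all genes 6.19% rose and 3.6% fell in transgenic skin, and 9.81% rose and 11.9% fell in wild-type skin. Of the 16 kept probe sets of the 8 genes, 6 rose and 0 fell in transgenic skin at day 1. In wild-type skin 7 rose and 2 fell. From day 1 to day 7 Igf1 fell by 0.89 in transgenic skin (SE 0.17, adjusted p = 0.000731), and its day 7 level differed from day 0 by 0.01 ± 0.19 (adjusted p = 0.967). In wild-type skin the day 7 level was 0.73 ± 0.19 above day 0 (adjusted p = 0.0266). The day 1 rise lost its call without the second transgenic day 0 array in transgenic skin and without any array other than replicate 1 of day 0 in wild-type skin, and the wild-type day 7 rise likewise, but the values stayed between 0.44 and 1.07. Without further scaling of the arrays, the day 1 rise lost its call in both genotypes (adjusted p = 0.120 in transgenic and 0.0699 in wild-type skin). The wild-type day 7 rise lost it too (adjusted p = 0.175), and also when only the groups compared were fitted (adjusted p = 0.0653).

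At day 7 Igf1 averaged 1383 ± 222 in transgenic skin (SD, n = 3) and 3130 ± 146 in wild-type skin (SD, n = 2), a log2 difference of -1.17 ± 0.19 (adjusted p = 0.000237). Whether the change since day 0 differed between genotypes depended on the probe set: the brightest gave -0.71 ± 0.27 (adjusted p = 0.0764), and the other 2 gave -1.27 ± 0.32 (adjusted p = 0.0117) and -0.98 ± 0.25 (adjusted p = 0.0109). The brightest passed the threshold without the first wild-type day 0 array, at 2600 the highest of its group, and without the third transgenic day 7 array. The 3 probe sets correlated at 0.871 to 0.933 over the 16 arrays.

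Markers of macrophages, which are a known source of IGF-I, moved with Igf1. Of 7 macrophage markers, 5 rose and 0 fell in transgenic skin at day 1, beside 6.19% and 3.6% of all genes. In wild-type skin 6 rose and 0 fell at day 1, beside 9.81% and 11.9%. The counts were the same at day 7, beside 5.02% and 5.26%. At day 7, 0 were higher and 6 lower in transgenic than in wild-type skin, beside 18.9% and 20.5% of all genes. The summed intensity of the macrophage markers was 8846 to 9827 on the transgenic day 0 arrays, 13617 to 18149 on day 1 and 7907 to 12708 on day 7. In wild-type skin it was 9198 to 10484 on day 0, 18106 to 18773 on day 1 and 18321 to 18370 on day 7. Igf1 correlated with the mean log2 level of these markers at 0.84 over all 16 arrays and at 0.78 over the 13 arrays without transgenic day 7, and with 8 dermal fibroblast markers at 0.82 and 0.77. With 4 markers of the dermal papilla, another known source, the values were 0.08 and 0.81. Their summed intensity was 597 to 636 on the transgenic day 0 arrays, 973 to 1363 on day 1 and 1466 to 1547 on day 7, and in wild-type skin 538 to 911, 1071 to 1185 and 1139 to 1189 on those days. These arrays share their groups and scaling, so the correlations are descriptions, and the part of these cells in the Igf1 result was not tested. In RNA of whole skin, fewer cells of a type and less RNA per cell cannot be told apart.

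**Figure D2:**
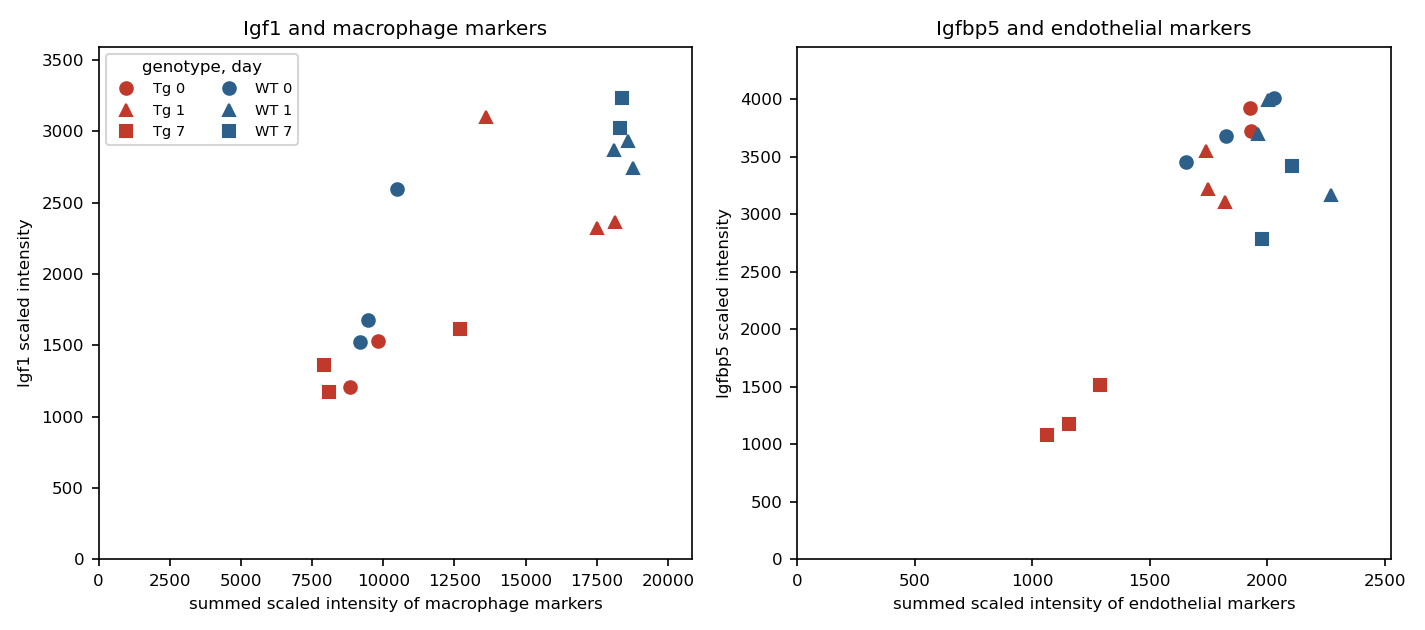
Scaled intensity of Igf1 against the summed intensity of 7 macrophage markers (left) and of Igfbp5 against that of 6 endothelial markers (right), 1 point per array, by genotype (Tg red, WT blue) and day (circle 0, triangle 1, square 7). Igf1 is spread along the macrophage axis in both genotypes, while Igfbp5 separates the 3 transgenic day 7 arrays from the other 13.

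Igf2, the ligand that the IGF-II receptor clears, moved little. Its kept probe set measured 240 and 295 on day 0, 253, 269 and 219 on day 1 and 186, 214 and 223 on day 7 in transgenic skin. Wild-type arrays gave 262, 245 and 302 on day 0, 254, 247 and 302 on day 1 and 359 and 329 on day 7. The day 7 arrays of the genotypes did not overlap: the wild-type ones were the highest of all 16, and every transgenic one was below all 8 wild-type arrays.

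At day 7 Igf2 was lower in transgenic than in wild-type skin, by -0.65 ± 0.13 on the log2 scale (adjusted p = 0.00122). Neither genotype on its own passed the test against day 0, at -0.32 ± 0.13 in transgenic skin (adjusted p = 0.0703) and 0.32 ± 0.13 in wild-type skin (adjusted p = 0.137). The difference between these changes, -0.64 ± 0.19, passed (adjusted p = 0.0238) but was lost without further scaling of the arrays and when any 1 of 4 arrays was left out: the second of transgenic day 0, the first of transgenic day 7, the second of wild-type day 0 or the first of wild-type day 7. A second Igf2 probe set did not pass the filter, at 5.05 to 38.3 over the arrays.

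Igfbp2, a binding protein with a preference for IGF-II, moved in opposite directions in the genotypes. Transgenic skin measured 571 and 601 on day 0, 523, 640 and 632 on day 1 and 963, 1044 and 952 on day 7. Wild-type skin measured 895, 564 and 792 on day 0, 495, 521 and 592 on day 1 and 280 and 305 on day 7. The 3 transgenic day 7 arrays were the highest of all 16 and the 2 wild-type day 7 arrays the lowest.

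Igfbp2 rose in transgenic skin by 0.72 ± 0.15 from day 0 to day 7 (adjusted p = 0.00157), and was 0.70 ± 0.13 higher at day 7 than at day 1 (adjusted p = 0.000774). In wild-type skin it fell by 0.44 at day 1 (SE 0.13, adjusted p = 0.0295), with 1 of 3 day 0 arrays inside the day 1 range, and by 1.25 at day 7 (SE 0.15, adjusted p = 0.000227). By brightest probe set, Igf1 and Igfbp2 were the 2 of the 8 genes that changed in wild-type skin at day 7, where 5.02% of all genes rose and 5.26% fell. Of the 16 kept probe sets of the 8 genes, 4 rose and 1 fell there, and Igf1 has 3 of these 16. Igfbp2 was also the 1 gene that changed between wild-type day 7 and day 1, by -0.80 ± 0.15 (adjusted p = 0.0117), where 1.47% of all genes rose and 1.21% fell. That call was lost without either wild-type day 7 array, and the day 1 fall without replicate 1 or 3 of wild-type day 0 or replicate 1 or 2 of wild-type day 1. Both calls were lost without further scaling of the arrays, and that of the day 1 fall also when only the groups compared were fitted.

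At day 7 Igfbp2 averaged 986 ± 50.1 in transgenic skin (SD, n = 3) and 293 ± 17.6 in wild-type skin (SD, n = 2), a log2 difference of 1.65 ± 0.15 (adjusted p = 1.42e-06). The changes since day 0 differed between genotypes by 1.97 ± 0.21 (adjusted p = 2.90e-05). Without further scaling of the arrays the transgenic rise was 0.57 and did not pass (adjusted p = 0.0998), while the difference between genotypes kept its call in every alternative.

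**Figure D3:**
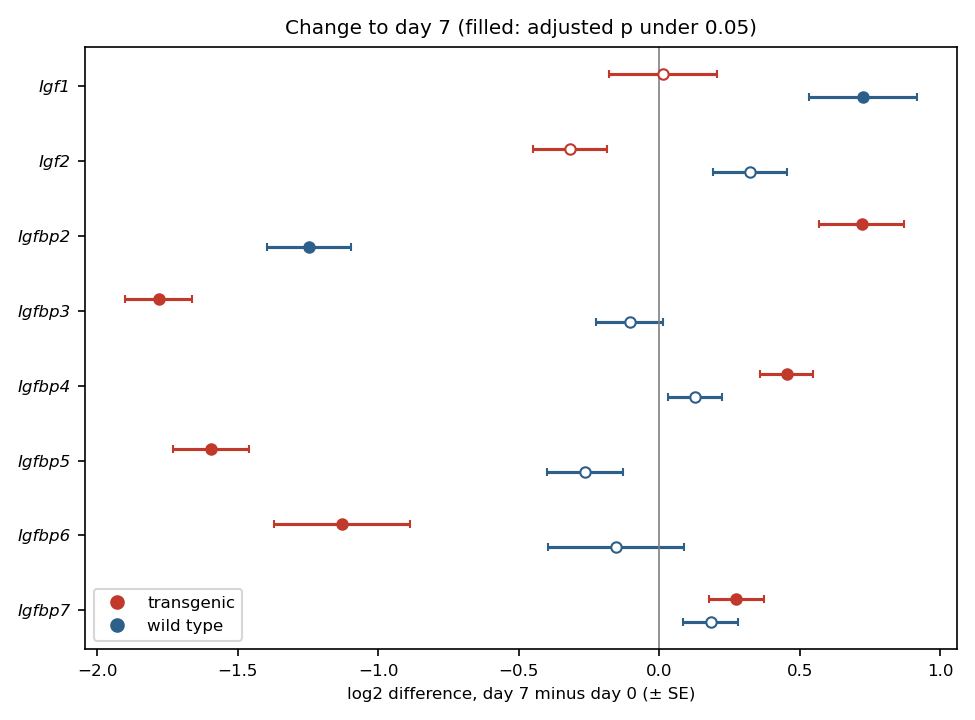
Log2 difference between day 7 and day 0 of each gene's brightest probe set, in transgenic (red, upper point) and wild-type skin (blue, lower point), with SE bars; filled points have an adjusted p under 0.05. Igfbp2 lies on opposite sides of 0 in the genotypes, and Igfbp3, Igfbp5 and Igfbp6 lie below -1 in transgenic skin.

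Igfbp3, the main IGF carrier in blood and also made in skin, had the largest fall of the 8 genes. It measured 1709 and 1725 on day 0, 1311, 1394 and 1553 on day 1 and 492, 449 and 491 on day 7 in transgenic skin. The wild-type values were 1619, 1905 and 1932 on day 0, 1144, 1477 and 1359 on day 1 and 1544 and 1834 on day 7. The lowest of the other 13 arrays was at 1144, so the transgenic day 7 arrays stood apart.

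Igfbp3 fell by 1.78 between day 0 and day 7 in transgenic skin (SE 0.12, adjusted p = 5.12e-08) and by 1.51 between day 1 and day 7 (SE 0.11, adjusted p = 8.08e-08). At day 1 it fell by 0.45 in wild-type skin (SE 0.11, adjusted p = 0.0089), a call lost without the first wild-type day 1 array and without further scaling of the arrays. The transgenic value of -0.27 ± 0.12 did not pass (adjusted p = 0.168). The difference between the day 1 changes, 0.18 ± 0.16, did not pass either (adjusted p = 0.605). At day 7 Igfbp3 was lower in transgenic than in wild-type skin by -1.75 ± 0.12 (adjusted p = 7.81e-08), and the changes since day 0 differed by -1.68 ± 0.17 (adjusted p = 1.68e-05).

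Igfbp5, which binds the extracellular matrix as well as IGFs, fell in the same arrays. Its brightest probe set measured 3724 and 3922 on day 0, 3222, 3105 and 3550 on day 1 and 1081, 1175 and 1515 on day 7 in transgenic skin. In wild-type skin it measured 4008, 3453 and 3680 on day 0, 3169, 3994 and 3698 on day 1 and 2781 and 3416 on day 7. The highest transgenic day 7 array was below the lowest of the other 13.

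Igfbp5 fell by 1.59 between day 0 and day 7 in transgenic skin (SE 0.14, adjusted p = 4.84e-07), was lower there than in wild-type skin at day 7 by -1.29 ± 0.14 (adjusted p = 5.47e-06), and its changes since day 0 differed by -1.33 ± 0.19 (adjusted p = 0.000305). The second Igfbp5 probe set did not show this: it ranged from 180 to 689 over the arrays, changed by 0.03 ± 0.42 between transgenic day 7 and day 0 (adjusted p = 0.968) and correlated with the brightest at 0.23. Which transcripts each probe set reads was not analysed here.

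Igfbp6, which binds IGF-II far more tightly than IGF-I, followed with a wider spread. It measured 2597 and 1858 on day 0, 3064, 2609 and 2139 on day 1 and 945, 731 and 1386 on day 7 in transgenic skin. Wild-type skin gave 2453, 2102 and 3679 on day 0, 2870, 2667 and 2741 on day 1 and 2342 and 2452 on day 7. The transgenic day 7 arrays were again the lowest of all, though they differed among themselves more than for Igfbp3.

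Igfbp6 fell by 1.13 between day 0 and day 7 in transgenic skin (SE 0.24, adjusted p = 0.00182) and by 1.36 between day 1 and day 7 (SE 0.22, adjusted p = 0.000157), and was lower there than in wild-type skin at day 7 by -1.25 ± 0.24 (adjusted p = 0.00088). The difference between the changes since day 0, -0.98 ± 0.34, did not pass (adjusted p = 0.0545). It crossed the threshold in 7 of the alternatives, among them leaving out the third wild-type day 0 array, the highest of the 16. In the comparison of transgenic day 7 with day 1, Igfbp2 rose and Igf1, Igfbp3, Igfbp5 and Igfbp6 fell, where 21.2% of all genes rose and 22.6% fell.

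Over the 16 arrays the levels of Igfbp3 and Igfbp5 correlated at 0.95, those of Igfbp5 and Igfbp6 at 0.88 and those of Igfbp3 and Igfbp6 at 0.83, while Igf2 and Igfbp2 ran opposite at -0.71. Over the 13 arrays without transgenic day 7 these values were 0.35, -0.09, -0.24 and -0.53. The transgenic day 7 arrays had less signal of several tissues. In transgenic skin at day 7 against day 0, where 18.2% of all genes rose and 19.7% fell, 5 of 6 endothelial markers fell. So did 4 of 5 fat cell and 5 of 6 skeletal muscle markers, and 0 of each list rose. The 8 dermal fibroblast markers were mixed, with 3 higher and 2 lower. Of the epidermal lists, 3 of 5 basal keratinocyte markers fell and 0 rose, and 2 of 5 suprabasal markers fell and 1 rose. Of 6 pericyte and smooth muscle markers 3 fell and 2 rose, and of 4 dermal papilla markers 0 fell and 2 rose. The papilla marker Wif1 averaged 311 on transgenic day 7 and 45 to 63 in the other groups, means below the filter's threshold. Wif1 may have entered the test through the arrays where it is high, so its rise cannot be weighed against the shares of all genes. How many arrays of each group passed the threshold was not counted for this list. Summed basal keratinocyte intensity was 25298 to 26300 on transgenic day 7, against 31884 to 36848 on transgenic day 0 and 29541 to 33474 on wild-type day 7. Summed endothelial intensity was 1065 to 1290 on the transgenic day 7 arrays, against 1927 to 1931 on transgenic day 0 and 1980 to 2106 on wild-type day 7. Summed skeletal muscle intensity was 32777 to 40317 on transgenic day 7, against 54829 to 63025 on transgenic day 0 and 60574 to 68011 on wild-type day 7, and summed fat cell intensity was 10561 to 12505 against 22212 to 28433 and 17270 to 24169.

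Igfbp3 correlated with the skeletal muscle markers at 0.93 over all 16 arrays and at 0.52 over the 13 without transgenic day 7. With the basal keratinocyte markers Igfbp3 correlated at 0.85 and 0.64, and with the suprabasal ones at 0.15 and 0.81. For Igfbp5 and the basal keratinocyte markers the values were 0.82 and 0.50. For Igfbp5 and the endothelial markers these values were 0.92 and 0.06, and for Igfbp6 and the endothelial markers 0.87 and 0.14. The endothelial list did not stand out. Igfbp5 gave 0.94 and 0.15 with skeletal muscle, 0.89 and 0.37 with fat cell and -0.97 and -0.17 with inner root sheath markers. Igfbp6 gave 0.84 and -0.47 with skeletal muscle and 0.83 and 0.19 with fat cell markers. Of the 4 inner root sheath and 4 hair shaft markers, all but Krt71 were above the filter's threshold on the transgenic day 7 arrays alone and had to differ there, so no count is given. Summed inner root sheath intensity was 24397 to 33751 on transgenic day 7, against 204 to 278 on transgenic day 0 and 200 to 230 on wild-type day 7. All 4 markers of dividing cells rose between transgenic day 0 and day 7, beside 18.2% of all genes. Their sums were 5865 to 6321 on transgenic day 7, against 1179 to 1239 on transgenic day 0 and 1558 to 1753 on wild-type day 7. The part of these tissues in the falls of Igfbp3, Igfbp5 and Igfbp6 and in the rise of Igfbp2 was not tested.

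Igfbp4, a binding protein that mostly withholds IGFs and is cut by pappalysin, was read by 6 kept probe sets and rose in transgenic skin by day 7. The brightest measured 5293 and 4155 on day 0, 5516, 5607 and 6132 on day 1 and 6575, 6233 and 6488 on day 7 in transgenic skin. On wild-type arrays it measured 5088, 4930 and 5602 on day 0, 5878, 5843 and 6024 on day 1 and 5459 and 5908 on day 7. The transgenic day 7 arrays were the highest of all, by a small margin. At day 1 the brightest did not pass against day 0, at 0.29 in transgenic (limma adjusted p = 0.0674) and 0.18 in wild-type skin (adjusted p = 0.131). At wild-type day 7 it gave 0.13 (adjusted p = 0.437). Another probe set averaged 3079, 4318 and 5556 on transgenic days 0, 1 and 7, and 3412, 4335 and 4412 on those days in wild-type skin. All 6 had higher means at day 1 than day 0 in both genotypes.

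The rise of Igfbp4 between transgenic day 0 and day 7 was 0.45 ± 0.10 for the brightest probe set (adjusted p = 0.00161), and 5 of the 6 probe sets passed, with values up to 0.85 ± 0.09 (adjusted p = 4.92e-06). The brightest lost its call without further scaling and without the second transgenic day 0 array, at 4155 the lowest of the 16. The sixth probe set gave 1.44 ± 0.56 (adjusted p = 0.0586), and measured 16.3 on the third transgenic day 1 array beside 306 and 307 on the other 2. Between genotypes at day 7 the brightest gave 0.18 ± 0.10 (adjusted p = 0.156), while 2 others passed, at 0.33 ± 0.09 (adjusted p = 0.0108) and 0.41 ± 0.11 (adjusted p = 0.00779). The same 2 also passed for the difference between the day 7 changes, at 0.48 ± 0.13 (adjusted p = 0.0174) and 0.45 ± 0.15 (adjusted p = 0.0479).

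**Figure D4:**
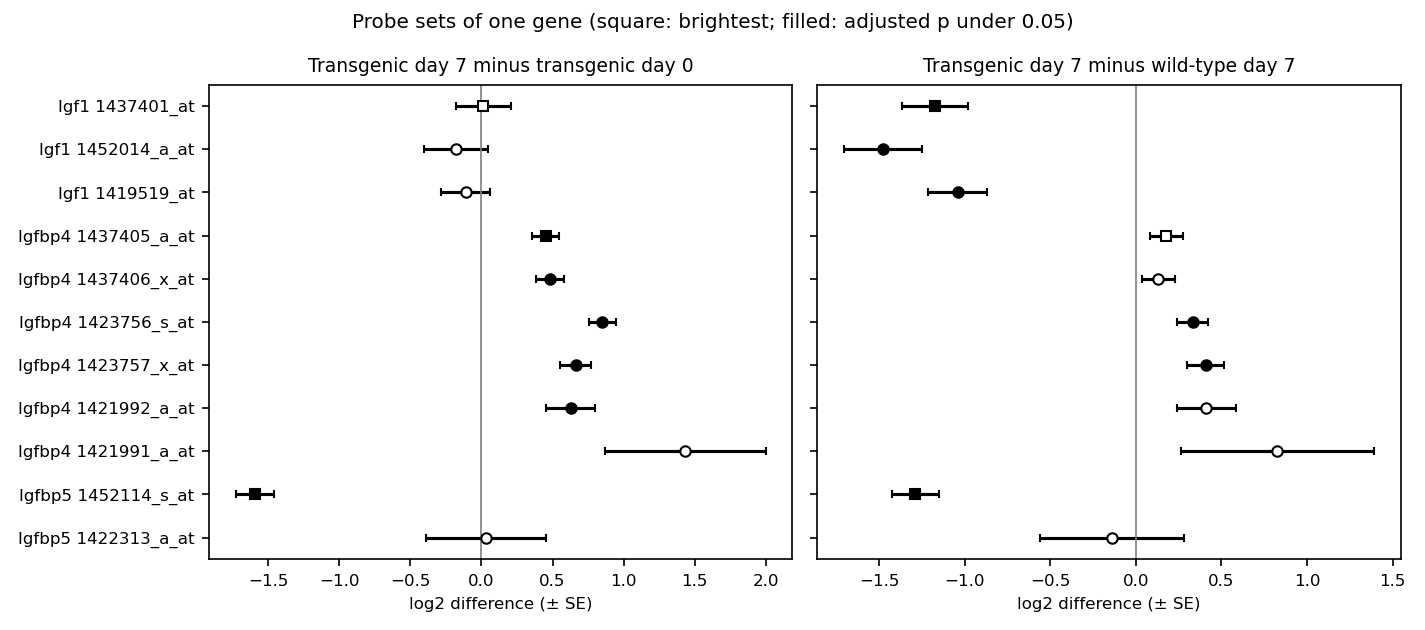
Log2 difference of every kept probe set of Igf1, Igfbp4 and Igfbp5 between transgenic day 7 and transgenic day 0 (left) and between transgenic and wild-type skin at day 7 (right), with SE bars; squares mark the brightest probe set of a gene and filled points an adjusted p under 0.05. The 3 Igf1 probe sets lie together in both panels, the Igfbp4 probe sets all lie above 0, and the dimmer Igfbp5 probe set lies near 0 while the brightest lies below -1.

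Igfbp7, a secreted relative with low affinity for IGFs that is abundant around vessels, rose slightly at day 1. It measured 3282 and 2991 on day 0, 3883, 3965 and 4431 on day 1 and 3576, 3741 and 4082 on day 7 in transgenic skin. In wild-type skin it measured 3620, 3118 and 3303 on day 0, 4611, 4037 and 3969 on day 1 and 3633 and 3969 on day 7. Day 1 was above day 0 in both genotypes without overlap, and the genotypes overlapped on every day.

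Igfbp7 rose at day 1 by 0.38 ± 0.10 in transgenic skin (adjusted p = 0.0261) and by 0.33 ± 0.09 in wild-type skin (adjusted p = 0.0164), and the difference between genotypes was 0.05 ± 0.13 (adjusted p = 0.873). The transgenic call was lost without either day 0 array or replicate 3 of day 1, and the wild-type call without replicate 2 of day 0 or replicate 1 of day 1. Both calls were lost without further scaling of the arrays, and the transgenic one also when only the groups compared were fitted. At day 7 it was 0.27 ± 0.10 above day 0 in transgenic skin (adjusted p = 0.0399), a call that was lost in 9 alternatives, and 0.18 ± 0.10 in wild-type skin (adjusted p = 0.262). Transgenic and wild-type skin differed at day 7 by 0.00 ± 0.10 (adjusted p = 0.993). The other 2 Igfbp7 probe sets did not pass the filter.

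None of the 8 genes differed between genotypes at day 0 by the limma test, where 0.011% of all genes were higher and 0% lower in transgenic skin, and 1 of the 8, Igf1, had an unadjusted p under 0.05 at -0.46 ± 0.19. None differed at day 1 either, with 0 of 8 at an unadjusted p under 0.05, beside 0.552% of all genes higher and 0.475% lower. The change to day 1 differed between genotypes for 0 of 8, with Igfbp2 at an unadjusted p under 0.05 (0.47 ± 0.20), beside 0.121% and 0.177% of all genes. The change to day 7 differed for Igfbp2 upward and for Igf2, Igfbp3 and Igfbp5 downward, beside 11.5% and 10.9% of all genes. At an unadjusted p under 0.05 there were 7 of the 8, Igfbp7 being the exception. All shares of all genes given here are for an adjusted p under 0.05. The share at an unadjusted p under 0.05 was not computed, so the counts at that threshold cannot be set against these shares.

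Of the receptors, Igf1r, through which both ligands signal, rose in transgenic skin. It averaged 258 ± 2.0 at day 7 (SD, n = 3), against 170 ± 2.9 at day 0 (SD, n = 2), a log2 difference of 0.52 ± 0.18 (adjusted p = 0.0339). Against wild-type skin at day 7, at 195 ± 3.0 (SD, n = 2), its difference of 0.35 ± 0.18 did not pass (adjusted p = 0.14). The changes of Igf1r since day 0 differed between genotypes by 0.43 ± 0.26, which did not pass (adjusted p = 0.259). A second Igf1r probe set did not pass the filter, at 3.74 to 52.4 over the arrays. Igf2r gave -0.09 ± 0.11 (adjusted p = 0.583) and Insr, the insulin receptor, 0.27 ± 0.24 (adjusted p = 0.41) between transgenic day 7 and day 0.

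Over 14 kept genes of the receptors and the signalling chain behind them, 1 rose and 4 fell in that comparison, where 18.2% of all genes rose and 19.7% fell, with a median of -0.14 beside 0.01 over all genes. The 4 that fell were Pik3r1, a regulatory subunit of PI3-kinase, at -0.85 (adjusted p = 0.000666), Foxo3, a transcription factor that insulin signalling keeps out of the nucleus, at -0.67 (adjusted p = 0.00381), Grb10, an adaptor that inhibits both receptors, at -0.58 (adjusted p = 0.00363), and Irs1, an adaptor that carries their signal, at -0.48 (adjusted p = 0.00973). Grb10 and Pik3r1 also differed between genotypes in the change to day 7, at -0.74 (adjusted p = 0.0134) and -0.77 (adjusted p = 0.025). Foxo3 and Irs1 fell in wild-type skin at day 7 as well, at -0.65 (adjusted p = 0.0186) and -0.51 (adjusted p = 0.0227), and Foxo3 at day 1 at -1.13 (adjusted p = 0.000227).

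A list of binding protein proteases and partners, which includes Stc1 and Stc2, had 7 kept genes. Their median was -0.57 in transgenic skin at day 7 against day 0, beside 0.01 over all genes. Of the 7, 1 was higher and 3 lower, beside 18.2% and 19.7% of all genes. Htra3, a secreted serine protease, averaged 2847 ± 61.7 in transgenic skin at day 1 (SD, n = 3), against 1537 ± 86.5 at day 0 (SD, n = 2), and 783 ± 261 at day 7 (SD, n = 3), against 2501 ± 146 in wild-type skin (SD, n = 2). It rose at day 1 in both genotypes, by 0.88 (adjusted p = 0.0102) in transgenic and 0.59 (adjusted p = 0.0215) in wild-type skin, and its changes to day 7 differed by -1.63 (adjusted p = 0.000736). Htra1, a relative known to cut IGFBP-5, fell by 0.71 in transgenic skin at day 7 (adjusted p = 2.57e-05).

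Adam12, a membrane metalloprotease whose human form cuts IGFBP-3 and IGFBP-5, was induced by day 1 in both genotypes, by 1.11 in transgenic (adjusted p = 0.000528) and 1.64 in wild-type skin (adjusted p = 6.62e-06). At day 7 it averaged 286 ± 45.1 in transgenic skin (SD, n = 3) and 431 ± 56.4 in wild-type skin (SD, n = 2), a difference of -0.55 (adjusted p = 0.0107). Vtn, vitronectin, which joins complexes of IGFs and binding proteins, was lower by -0.65 in the same comparison (adjusted p = 0.0192). In all, 0 of the 7 were higher and 4 lower in transgenic than in wild-type skin at day 7, beside 18.9% and 20.5% of all genes.

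Among 7 genes related to the binding proteins are the matricellular CCN genes. Ccn4, also named Wisp1 and known as a target of Wnt signalling, averaged 234 ± 45.9 on transgenic day 7 (SD, n = 3), against 48.0 ± 30.0 on transgenic day 0 (SD, n = 2). It was above the filter's threshold on all 3 of these day 7 arrays and on 1 of the other 13, so it entered the test through the arrays where it is high and had to differ there. Ccn3 and Ccn2 fell in transgenic skin by 1.94 (adjusted p = 4.26e-06) and 0.95 (adjusted p = 0.00774), and in wild-type skin by 1.30 (adjusted p = 0.00177) and 1.12 (adjusted p = 0.0116).

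Igfbp1, the neighbour of Igfbp3 on chromosome 11 at a distance of 3.54 kb, did not pass the filter, at 1.10 to 30.7 over the arrays. Of 9 kept imprinted genes known to be co-expressed with Igf2 in growing mouse tissue, 2 rose and 2 fell in transgenic skin between day 0 and day 7. These counts are near the shares over all genes, of which 18.2% rose and 19.7% fell. Slc38a4 and Peg3 rose, by 0.83 (adjusted p = 0.00106) and 0.82 (adjusted p = 0.00982). Plagl1 and Ndn fell, by 0.58 (adjusted p = 0.000725) and 0.85 (adjusted p = 0.00194). Peg3 was the 1 of the 9 whose change to day 7 differed between genotypes, by 1.20 (adjusted p = 0.0152). Over all genes 11.5% differed upward and 10.9% downward. The 2 measured genes for proteins that bind Igf2 mRNA, Igf2bp1 and Igf2bp3, did not pass the filter.

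**Figure D5:**
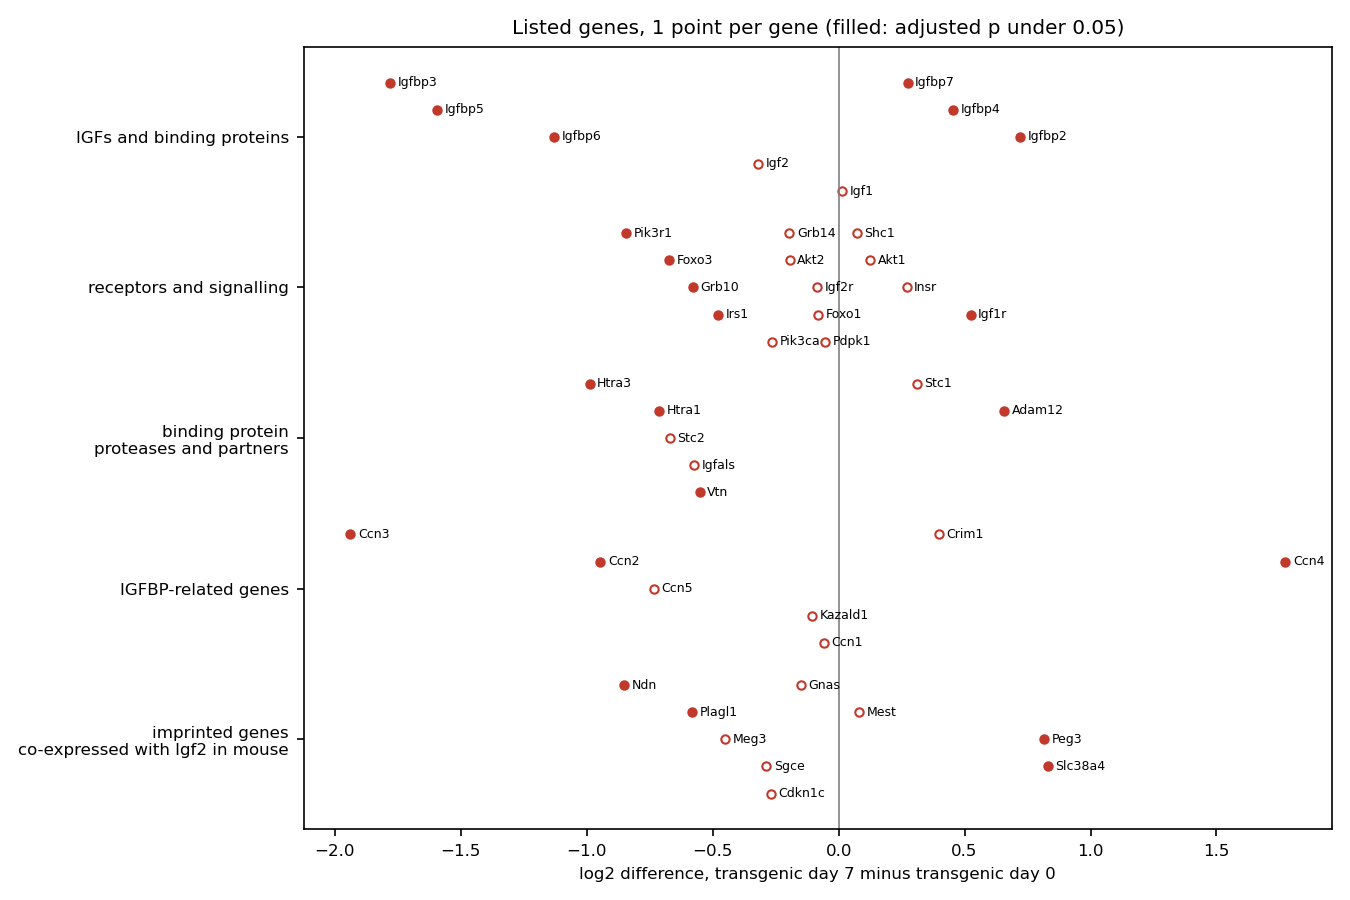
Log2 difference between transgenic day 7 and transgenic day 0 for the 8 genes and 4 lists of related genes, 1 point per gene by its brightest probe set; filled points have an adjusted p under 0.05 and vertical position within a list has no meaning. Igfbp3 and Ccn3 lie farthest to the left and Ccn4, which passed the filter through the transgenic day 7 arrays, farthest to the right.

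The genes most like each of the 8 were taken as the 3 with the highest Pearson correlation over the 16 arrays among 9058 genes. Igfbp2 was most like Fbln1, which encodes the matrix protein fibulin 1 (0.94), whose day 7 mean was 961 in the transgenic group and 366 in the wild-type group, followed by Zc3h14 (0.89) and Prim1, a primase subunit of DNA replication (0.89). Igfbp3 was most like Inpp5a, Ak1 and Apobec2 (each 0.98), Igfbp5 like Ogn, which encodes the matrix protein osteoglycin, Inpp5a and Tmeff2 (each 0.97), and Igfbp6 like Serpinf1 (0.96), Cnp (0.96) and Gpx3 (0.95).

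For Igf1 they were Ap2a2, Lst1 and Fgd2 (each 0.90), of which Lst1 is known from leukocytes. For Igf2 they were Prkcd (0.90), Sp100 (0.86) and Pstpip2 (0.85), for Igfbp4 Ptrhd1, 1700123O20Rik and Vcan (each 0.87), the last encoding the matrix protein versican, and for Igfbp7 Pdgfra (0.88), the receptor that marks dermal fibroblasts, Tbc1d13 (0.86) and Timp1 (0.86).

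Arrays within a group correlated at 0.973 to 0.986. Markers of basal keratinocytes and dermal fibroblasts were present on every array of the total skin. Esr1, whose probe set can read the receptor part of the transgene, averaged 405 in the transgenic group at day 0, 180 at day 1 and 221 at day 7, against 29.0, 32.4 and 15.8 in the wild-type groups of those days, and was higher in transgenic skin on each day (adjusted p = 0.00575, 0.0276 and 8.14e-05).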

How the data were processed

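The deposited values are probe set intensities on a linear scale, 22690 per array, of which 64 are controls. The authors' summarising software and any scaling before deposit are not given in the sources used here. Because the 2% trimmed mean of the arrays ranged from 358 to 546, each array was scaled to a common trimmed mean (factors 0.825 to 1.26) and taken as log2(intensity + 32), which understates changes of dim genes. Symbols came from the platform annotation: 20380 probe sets had 1 symbol, 691 several and 1555 were not listed. Kept were probe sets with 1 symbol above their array's 40th percentile (101 to 132) on at least 2 arrays. Samples were grouped by title, and group means of the 16 arrays were fitted in limma 3.58.1 (R 4.3.3) with a variance trend and 10 residual degrees of freedom, in 11 comparisons; tests were two-sided. The number of arrays limits the precision. The fit was tested on simulated data.

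The 8 genes and all lists were chosen with earlier results of these data known. Named beside the 8 were, by rule, the 3 most alike genes of each, up to 4 genes per list with the smallest p between transgenic day 7 and day 0 and up to 2 in the other comparisons, and the receptors. Of 36 pairs of same-numbered replicates, 8 had deviations that correlated over 0.1 (median 0.02), against 7 of 70 pairs with other numbers. This check does not settle whether same-numbered replicates share a source. The numbers were not taken as pairs because the labels do not say that they mark a shared animal or day. Promoters are RefSeq's for GRCm38.p6. H19, Pappa2, Ccn6, Igf2bp2, Rspo3, Ccnb1 and Plin1 were not analysed here. Plots were made in Python 3.11.15 with matplotlib 3.10.9.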

Additional observations from a re-analysis of the deposited data

Results flagged for a closer look

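For 4 of the 8 genes the change from day 0 to day 7 differed between transgenic and wild-type skin by the interaction term of the limma fit. The difference, transgenic minus wild type, was 1.97 for Igfbp2, -1.68 for Igfbp3, -1.33 for Igfbp5 and -0.64 for Igf2 on the log2 scale. Igfbp2 changed in opposite directions in the genotypes, and both changes passed the test. Igf2 also had values of opposite sign, -0.32 in transgenic and 0.32 in wild-type skin, but neither passed. Its call for the difference was lost in several alternatives. Igfbp3 and Igfbp5 fell in transgenic skin with wild-type values of -0.11 and -0.26 that did not pass the test. Of all genes, 11.5% passed this test upward and 10.9% downward.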

How the results depend on the processing

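Of 780 alternative values for the 30 calls of single genes, 730 kept direction and call, 50 lost the call and 0 reversed. The 26 alternatives of each call include leaving out arrays that are not in its comparison. Such arrays act on it mainly through the shared estimate of the spread. Most calls would be kept there in any case, so the total says little about how firm a call is. Igfbp3, Igfbp5 and Igfbp6 between transgenic day 7 and day 0, and Igfbp2, Igfbp3 and Igfbp5 in the difference between genotypes, kept their call in every alternative run. The number of the 8 genes called moved most without further scaling, which shifts the median of all genes by -0.12 for transgenic day 1 and -0.14 for transgenic day 7: it became 0 for transgenic day 1 against day 0 (2 as reported), 3 for transgenic day 7 against day 0, all lower (6), 0 for wild-type day 1 against day 0 (4), 1 for wild-type day 7 against day 0 (2) and 0 for wild-type day 7 against day 1 (1). Fitting only the groups compared gave 1 for transgenic day 1 against day 0, 5 for transgenic day 7 against day 0, 3 for wild-type day 1 against day 0 and 1 for wild-type day 7 against day 0. Leaving out 1 array at a time gave 0 to 2 for transgenic day 1 against day 0 (0 without the second transgenic day 0 array, 1 without replicate 3 of day 1), 4 to 6 for transgenic day 7 against day 0 (4 without replicate 2 of day 0), 3 to 6 for the difference in the change to day 7 (6 without replicate 3 of transgenic day 7), 0 to 4 for wild-type day 1 against day 0 (0 without the first wild-type day 1 array, 2 without replicate 2 of that day or without replicate 2 or 3 of day 0), 1 to 2 for wild-type day 7 against day 0 and 0 to 1 for wild-type day 7 against day 1 (0 without either day 7 array). With a replicate block the counts were 2, 5 and 5 for transgenic day 1 against day 0, day 7 against day 0 and day 7 against day 1, 4, 2 and 1 for the same wild-type comparisons, 6 between genotypes at day 7 and 5 for the difference in the change to day 7 (6 and 4 as reported); the pairing check is given with the methods. The cause was not tested in any of these. Groups of 2 or 3 arrays limit what could be detected, and where an array is left out of a group of 2, the other is assumed to vary like the other groups.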
